A study of Rattus norvegicus with 4 samples.

Results

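Skeletal muscle fibres take up long-chain fatty acids with the help of Cd36 and fatty acid transport proteins, carry them on Fabp3, and activate them to acyl-CoA with long-chain acyl-CoA synthetases. Carnitine palmitoyltransferases and the carnitine carrier then pass the acyl groups into mitochondria, where beta-oxidation shortens them and hands electrons to the respiratory chain. The soleus, a slow postural muscle that is active during standing, is rich in these proteins. The genes described here are 37 listed members of this route, from uptake to the transfer of electrons to ubiquinone, with their nuclear receptors. They were chosen by symbol, and every probe set annotated to one of them was taken, 61 of the 8799 in the table. Of these, 54 carried a member as their only symbol and 7 named a member together with a second gene. An own probe set was found for 32 members. Crat, Etfb, Mlycd and Ppargc1a were not analysed here, and Acaa1a was read only together with Acaa1b.

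The arrays hold RNA of the soleus of female rats, and no strain or age is given in the labels. Control rats kept their usual standing and walking activity in cages (2 pools). Unloaded rats could not stand on their hindlimbs for 10 h a day on 11 successive days (2 pools). Each array carries RNA pooled from 4 to 5 rats, so errors and p-values cover only the spread between pools, which may be technical. In such tissue RNA fewer cells of a type and less RNA per cell cannot be told apart. The comparison asks which transcripts of fat oxidation differ in a postural muscle after repeated daily inactivity.

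Signals are MAS5 intensities per probe set, and the level of one probe set is not compared with that of another. Log2 fold changes are unloaded minus control on log2(signal + 9), with the standard error (SE) or the 95% interval of limma and the Benjamini-Hochberg adjusted p over 5257 tested probe sets. A probe set passed at an adjusted p under 0.05. The signal filter kept 47 of the 54 probe sets and 29 of the 32 members. Slow-fibre markers were strong on every array, with Myh7, the slow myosin heavy chain, at 9534 to 11198 on its brightest probe set. Of the listed liver genes, Alb stayed between 1.2 and 9.1 on its 4 probe sets, and Fgb was under the signal filter. Ttr and Apoa1 each had a probe set above the filter, at 26.7 to 53.4 and 28.7 to 41.7. Log2 signals correlated at 0.987 between control pools and 0.988 between unloaded pools, against 0.973 to 0.974 across groups.

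Of the 47 tested member probe sets, 2 rose and none fell: Acsl6, an acyl-CoA synthetase, by 1.97-fold and Cpt1a, an isoform of the enzyme that loads acyl groups onto carnitine, by 1.53-fold. The enzymes of beta-oxidation in the mitochondrial matrix gave small differences, mostly below 0, and none of their 21 probe sets passed. Among all tested probe sets 2.59% rose and 2.66% fell, so 2 of 47 (4.26%) is near the background, as is none of 47. At an unadjusted p under 0.05, 4 member probe sets were higher (8.51%, background 10.3%) and 9 were lower (19.1%, background 10.5%). Both unloaded pools lay above both control pools for 14 member probe sets (29.8%, background 25.5%) and below them for 19 (40.4%, background 25.3%). The median log2 fold change was -0.05 over the members and 0.0013 over all tested probe sets. It moved to 0.04 without control pool 1 and to -0.11 without control pool 2, so its sign rests on a single pool. For 28 of the 47 the 95% interval lay within 0.5 of 0 on the log2 scale, and for 46 within 1.

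**Figure D1:**
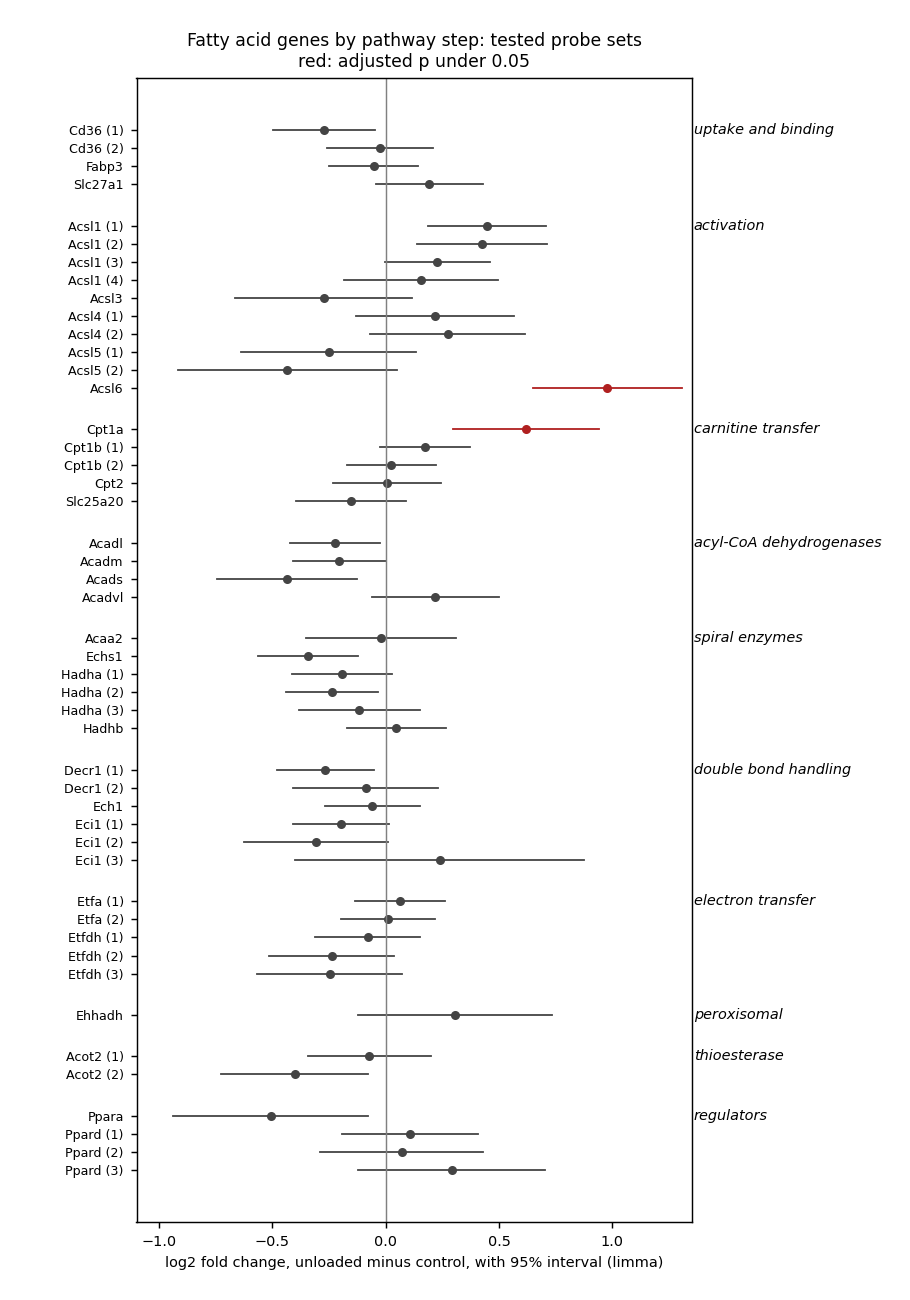
Log2 fold change (unloaded minus control, horizontal axis) of the 47 tested member probe sets with limma's 95% interval, 2 pools per group, grouped by pathway step; several probe sets of a gene are numbered from the brightest. Acsl6 (0.98) and Cpt1a (0.62), in red, are the probe sets that passed.

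Activation to acyl-CoA held the largest difference among the tested members, that of Acsl6, and no other synthetase passed; differences between the isoforms were not tested. Acsl6, a synthetase known from brain and red blood cells, gave signals of 83.5 and 82.7 in the control pools and 154.2 and 192.7 in the unloaded pools. Its group means were 83.1 ± 0.566 and 173 ± 27.2 (SD, n = 2 pools), a log2 fold change of 0.98 (SE 0.14, limma adjusted p = 0.00886, 95% interval 1.57 to 2.48 in fold). Both unloaded pools lay clearly above both control pools, although they differed more from each other than the control pools did. With 1 pool left out the log2 fold change was between 0.83 and 1.13, and of these 4 fits it passed only without unloaded pool 1 (adjusted p = 0.0372). Without a signal filter it missed the threshold (adjusted p = 0.0504).

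Acsl1, the main synthetase of muscle and fat, was higher on all 4 of its probe sets without passing. On the brightest the control pools gave 1052 and 897 and the unloaded pools 1414 and 1245 (log2 fold change 0.45, SE 0.11, adjusted p = 0.0644). The groups did not overlap. The other Acsl1 probe sets gave 0.42 (SE 0.12), 0.23 (SE 0.10) and 0.16 (SE 0.15), and their groups did not overlap either. The brightest passed with arrays scaled to a common median (adjusted p = 0.0421) and with a stricter signal filter (adjusted p = 0.0335), and its adjusted p ran up to 0.332 among the 12 alternatives. Acsl4, which prefers arachidonic acid, was at 49.5 and 48.4 in controls and 60.4 and 61.8 in unloaded pools on one probe set (0.27, SE 0.15, adjusted p = 0.338) and gave 0.22 (SE 0.15) on the other.

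The remaining synthetases were lower, also without passing. Acsl5 was at 26.7 and 37.1 in controls against 21.9 and 20.2 in unloaded pools (-0.43, SE 0.21, adjusted p = 0.288), and its brighter probe set gave -0.25 (SE 0.17). Acsl3 went from 41.0 and 46.2 to 35.5 and 33.4 (-0.27, SE 0.17, adjusted p = 0.405). All 10 tested probe sets of the 5 synthetases thus had groups that did not overlap, 7 with the unloaded pools above (25.5% of all tested probe sets) and 3 with them below (25.3%). The tested probe sets of Acsl3, Acsl4 and Acsl5 were dim, with mean signals of 26.5 to 91.15 over the pools. Acsl6 and Cpt1a, which passed, were each read on 1 probe set, with mean signals of 128 and 89.85. A further probe set of Acsl3 (9.60 ± 0.707 in controls) and 1 more of Acsl4 (2.05 ± 0.212) were under the signal filter.

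**Figure D2:**
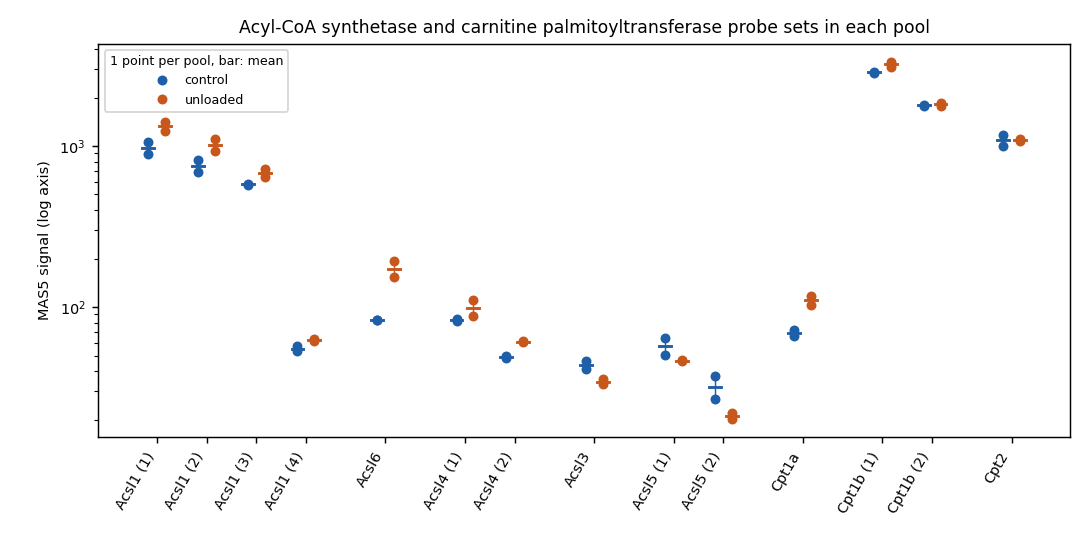
MAS5 signal (vertical log axis) of the tested probe sets of acyl-CoA synthetases and carnitine palmitoyltransferases, with 1 point per pool and a bar at the mean of the 2 pools of a group; heights are comparable within a probe set only. Acsl6 and Cpt1a show unloaded pools (154.2 and 192.7, 117.8 and 103.7) well above their control pools, while the pools of Cpt2 overlap.

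At the carnitine step Cpt1a passed and Cpt1b did not. Both isoforms load acyl groups onto carnitine at the outer mitochondrial membrane and set the rate of import. Cpt1a is the isoform typical of liver and Cpt1b that of muscle. Cpt1a was at 66.0 and 71.9 in controls and at 117.8 and 103.7 in unloaded pools, a rise from 69.0 ± 4.17 to 111 ± 9.97 (log2 fold change 0.62, SE 0.14, limma adjusted p = 0.0464, 95% interval 1.23 to 1.92 in fold). The groups did not overlap. With 1 pool left out Cpt1a gave 0.53 to 0.70 and did not pass in any of the 4 fits (adjusted p from 0.132 to 0.279). Other settings under which it missed the threshold included quantile normalization (adjusted p = 0.0563), a fit without a mean-variance trend (0.0743) and a fit without a signal filter (0.116).

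Cpt1b was bright and passed on neither probe set. Its brighter probe set gave 2861 and 2858 in controls and 3110 and 3344 in unloaded pools (0.17, SE 0.09, adjusted p = 0.299, 95% interval 0.983 to 1.29 in fold). There the groups did not overlap. Its other probe set had overlapping groups, 1806 and 1766 against 1856 and 1780 (0.03, SE 0.08). For Cpt1b a rise as large as the 1.53-fold of Cpt1a therefore lay outside both intervals, although the difference between the isoforms was not tested itself. The interval of Cpt1a (1.23 to 1.92) overlapped that of the brighter Cpt1b probe set and lay above that of the other (0.888 to 1.17). Cpt2, which returns the acyl group to CoA inside the inner membrane, gave 1169 and 1001 in controls and 1103 and 1071 in unloaded pools (0.0065, SE 0.10). Its unloaded pools lay between its control pools. The carrier Slc25a20, which swaps acylcarnitine for carnitine across the inner membrane, gave 391.8 and 351.9 against 329.8 and 335.8 (-0.15, SE 0.10, adjusted p = 0.461).

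The promoters of the 2 members that rose are shown because they are the only windows attached to a called change. Each window runs from 250 bases before to 50 bases after the RefSeq gene start in GRCr8, written 5′ to 3′ on the gene's strand. They lie at chr10:38951911-38952210 on the plus strand for Acsl6 and at chr1:209995910-209996209 on the plus strand for Cpt1a. Capitals mark every match, on either strand, to AGGTCA (the core site of many nuclear receptors), to that core site repeated after 1 base of any kind, to TNAAGGTCA, to GGGCGG (the GC box) or to CACGTG (the E box). The repeat and TNAAGGTCA contain AGGTCA, so their matches overlap.
Acsl6: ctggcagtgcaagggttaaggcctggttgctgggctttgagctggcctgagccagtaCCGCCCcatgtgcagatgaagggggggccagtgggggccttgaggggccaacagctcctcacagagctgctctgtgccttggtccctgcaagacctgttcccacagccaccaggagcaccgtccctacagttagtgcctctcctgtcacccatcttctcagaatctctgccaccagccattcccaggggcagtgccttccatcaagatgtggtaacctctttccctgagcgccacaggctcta
Cpt1a: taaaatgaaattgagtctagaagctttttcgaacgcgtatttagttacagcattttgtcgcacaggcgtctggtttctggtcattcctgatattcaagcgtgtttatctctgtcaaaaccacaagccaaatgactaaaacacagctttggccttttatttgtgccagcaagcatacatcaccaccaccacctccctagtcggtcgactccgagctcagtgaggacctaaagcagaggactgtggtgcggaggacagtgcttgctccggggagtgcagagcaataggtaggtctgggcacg
The Acsl6 window held 1 GC box on the minus strand, which begins 193 bases before the start, and the Cpt1a window held none of the 5 motifs. Neither therefore has AGGTCA in these letters. A window was found for 31 of the 37 members. AGGTCA was present in 5 of them (16.1%), against 16.2% of 33469 RefSeq windows and 13.0% of the 2828 windows of genes with a tested probe set. The GC box was present in 19 members (61.3%), against 33.1% and 61.8%. The repeated core site, TNAAGGTCA and the E box were in none of the member windows, against 0.0538%, 1.20% and 6.42% of all windows and none, 0.460% and 9.16% of those of tested genes.

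Fibre-type markers differed between the groups beside the rises of Acsl6 and Cpt1a. Of 11 tested probe sets of 10 fast-fibre genes 7 rose (2.59% over all tested probe sets), among them Tnni2, fast troponin I (1.04, limma adjusted p = 0.00549). Myl1 (0.17), Myh4 (0.15), Myh1 (-0.04) and Pvalb (-0.14) did not pass. The summed signal of the 11 was 13324 and 11629 in controls against 18694 and 18637 in unloaded pools. None of 12 slow-fibre probe sets passed, and their summed signal was 60623 to 61333 against 57488 to 63046. Summed signals of 5 endothelial probe sets were 690 and 665 in controls and 610 and 642 in unloaded pools, and those of 6 adipocyte probe sets were 1983 and 2209 against 1917 and 2269, none of either list passing. The adipocyte probe sets did not share a direction, 3 being above 0 and 3 below, from -0.61 (Cfd) to 0.31 (Fabp4). Smooth muscle markers were 6045 and 6258 against 6572 and 6940, where 1 of 10 probe sets rose (Acta2, 0.82). Most of each of these sums came from Des, at 4150 and 4157 in controls against 4067 and 4266. Of the 10 probe sets 8 were above 0 and 2 below, with a median log2 fold change of 0.24. Red blood cell markers were 4361 and 4595 against 5235 and 5139, higher in both unloaded pools, with none of 4 probe sets passing. Most of each red blood cell sum came from Hbb, at 4067 and 4365 in controls against 4897 and 4838 (0.21). All 4 probe sets were above 0, from 0.07 to 0.38. Leukocyte markers were 856 and 1186 against 1089 and 931 and Schwann cell markers 596 and 652 against 573 and 582, with none of 9 and none of 3 passing. Most of each Schwann cell sum came from a single Pmp22 probe set, at 541 and 599 in controls against 508 and 521 (-0.14). The other 2, of Pmp22 and Mbp, were dim and above 0 (0.15 and 0.18). The adipocyte gene Plin1 was under the filter at 5.8 to 19.5, and the leukocyte gene Ptprc at 1.9 to 22.9 on its 3 probe sets. The part of these markers in the members' differences was not tested.

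No probe set of uptake and intracellular binding passed, and their log2 fold changes ran from -0.27 to 0.19. Fabp3, the fatty acid carrier of heart and slow muscle, gave 5388 and 5008 in controls and 4966 and 5046 in unloaded pools (-0.05, SE 0.08, 95% interval 0.841 to 1.10 in fold), with overlapping groups. Slc27a1, a transport protein that also activates fatty acids, gave 427.7 and 393.7 against 455.0 and 486.3 (0.19, SE 0.10, adjusted p = 0.327). For Cd36, the fatty acid translocase, the brighter own probe set gave 915.7 and 898.0 in controls and 708.4 and 791.8 in unloaded pools (-0.27, SE 0.10, adjusted p = 0.167), whereas its other own probe set gave overlapping groups (-0.02, SE 0.10).

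Another 5 probe sets are annotated to both Cd36 and Cd36l1 and gave -0.13 to 0.19 without passing. In 2 of these the unloaded pools were above the control pools, the larger difference being 1899 and 1979 against 1665 and 1724 (0.19, SE 0.09, adjusted p = 0.249). In another they were below at 2361 and 2456 against 2626 and 2653 (-0.13, SE 0.08). The 7 probe sets that can read Cd36 thus did not share a direction.

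In the mitochondrial matrix, the enzymes of beta-oxidation were mostly slightly lower in unloaded pools, and no probe set passed. This covers 21 tested probe sets of 13 genes: the acyl-CoA dehydrogenases, the enzymes of hydration, second dehydrogenation and thiolysis, those that handle double bonds, and the electron-transferring flavoprotein with its dehydrogenase. Their log2 fold changes ran from -0.44 to 0.24 with a median of -0.19, and 16 of 21 were below 0, although these steps were joined after their values had been seen. Both unloaded pools lay below both control pools for 12 probe sets (57.1%, background 25.3%) and above them for 2 (9.52%, background 25.5%). The median was -0.19 and -0.15 when unloaded pools 1 and 2 were set against control pool 1, and -0.10 and -0.08 against control pool 2. With either unloaded pool, 18 of 21 probe sets were below 0 against control pool 1 and 13 of 21 against control pool 2. Between the 2 control pools the median was 0.07, with pool 1 higher on 13 of 21, and between the unloaded pools it was -0.04. The median was -0.21 with quantile normalization, -0.17 with median scaling and -0.10 without control pool 1, and 15 intervals lay within 0.5 of 0.

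**Figure D3:**
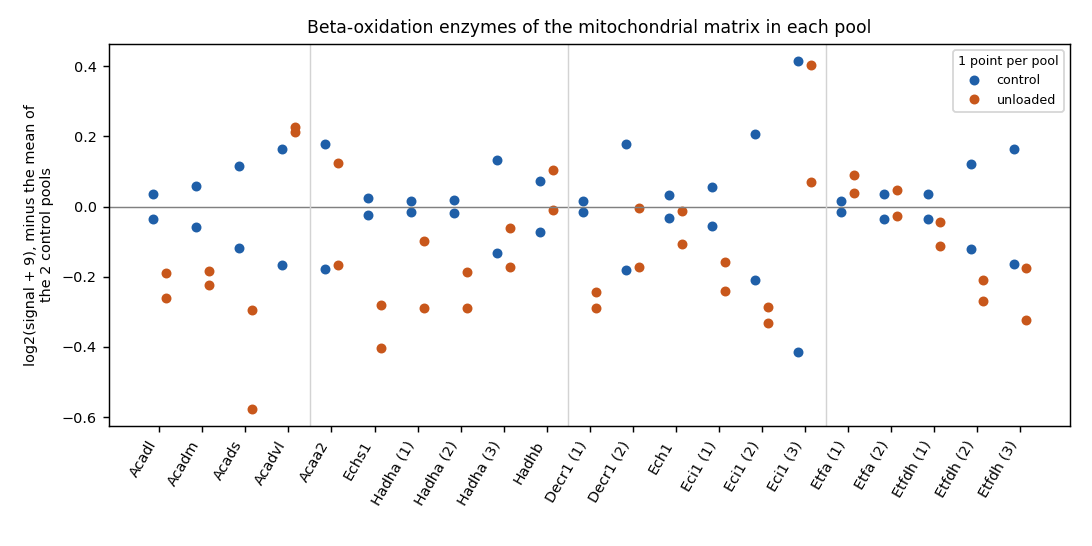
Log2(signal + 9) of each pool minus the mean of the 2 control pools (vertical axis) for the 21 tested probe sets of matrix enzymes, with 1 point per pool and grey lines between the 4 steps. Unloaded pools lie below both control pools for 12 probe sets, such as Acads and Echs1, and above both for 2, of Acadvl and Etfa, against 25.3% below and 25.5% above over all tested probe sets.

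The acyl-CoA dehydrogenases, which take the first electrons from fatty acids of different chain length, gave values below 0 for short, medium and long chains and above 0 for very long chains, none passing. Acads, for short chains, gave 375.5 and 443.1 in controls and 270.8 and 330.6 in unloaded pools (-0.44, SE 0.13, adjusted p = 0.120). Acadl, for long chains, gave 2930 and 3082 against 2508 and 2634 (-0.22, SE 0.09, adjusted p = 0.189). Acadm, for medium chains, gave 2163 and 1997 against 1778 and 1827 (-0.20, SE 0.09, adjusted p = 0.241). In all of these the groups did not overlap. Acadvl, which works on very long chains at the inner membrane, gave 926 and 734 against 967 and 957 (0.22, SE 0.12, adjusted p = 0.349), and its control pools differed by more than its groups did. A second Acadl probe set was under the signal filter at 8.30 ± 0.849 in controls and 11.9 ± 0.636 in unloaded pools.

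Echs1, the hydratase for short enoyl-CoA, had the smallest p of the matrix enzymes. It gave 811 and 838 in controls and 677 and 621 in unloaded pools, 1.27-fold lower (-0.34, SE 0.09, adjusted p = 0.0867). No alternative brought it past the threshold, with adjusted p from 0.0578 to 0.319. Acaa2, the matrix thiolase, gave 2923 and 2285 against 2300 and 2820 (-0.02, SE 0.14), so both unloaded pools lay between the control pools. Hadh, the dehydrogenase for short hydroxyacyl-CoA, was under the signal filter at 24.5 and 9.8 in controls and 7.2 and 11.4 in unloaded pools.

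Hadha and Hadhb encode the alpha and beta subunits of the trifunctional protein, which does the last steps of the cycle for long chains. All 3 Hadha probe sets were below 0 and none passed. The brightest gave 2596 and 2655 in controls and 2147 and 2452 in unloaded pools (-0.19, SE 0.10), and the next gave 2074 and 2125 against 1717 and 1845 (-0.24, SE 0.09, adjusted p = 0.177). The dimmest had overlapping groups (-0.12, SE 0.11). Hadhb gave 2047 and 1852 against 2092 and 1936, with overlapping groups (0.05, SE 0.09, 95% interval 0.888 to 1.20 in fold). The intervals of Hadhb and of all 3 Hadha probe sets overlapped.

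These subunit genes lie head to head on chromosome 6 of GRCr8, with 300 bases between their starts, so that their promoter windows share 200 bases. The windows are shown because 1 stretch of DNA lies upstream of both subunits. They are chr6:31907551-31907850 on the plus strand for Hadha and chr6:31907451-31907750 on the minus strand for Hadhb, with capitals as above.
Hadha: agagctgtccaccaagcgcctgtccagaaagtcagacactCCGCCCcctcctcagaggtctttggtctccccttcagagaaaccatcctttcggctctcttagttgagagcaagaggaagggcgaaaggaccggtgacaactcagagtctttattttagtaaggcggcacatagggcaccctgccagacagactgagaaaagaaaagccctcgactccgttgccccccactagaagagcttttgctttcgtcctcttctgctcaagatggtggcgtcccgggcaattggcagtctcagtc
Hadhb: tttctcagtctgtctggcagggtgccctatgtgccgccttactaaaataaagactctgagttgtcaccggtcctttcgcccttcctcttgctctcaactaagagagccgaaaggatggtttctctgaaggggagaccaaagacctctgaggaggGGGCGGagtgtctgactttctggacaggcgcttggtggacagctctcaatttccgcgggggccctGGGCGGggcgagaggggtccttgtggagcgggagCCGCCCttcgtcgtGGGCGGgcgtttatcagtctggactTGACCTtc
The Hadha window held 1 GC box, which begins 210 bases before its start and is the same site as the first of the 4 GC boxes in the Hadhb window, 96 bases before the start of Hadhb. The single AGGTCA match of the Hadhb window reads on the strand opposite to the gene, inside the first 50 bases of the gene.

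Enzymes that handle double bonds gave -0.31 to 0.24. For Decr1, the dienoyl-CoA reductase, the brighter probe set gave 648 and 633 in controls and 540 and 523 in unloaded pools (-0.27, SE 0.09, adjusted p = 0.159), and the other gave overlapping groups (-0.09, SE 0.14). Eci1, the enoyl-CoA isomerase, was at 1422 and 1316 against 1225 and 1157 on its brightest probe set (-0.20, SE 0.09) and gave -0.31 (SE 0.14) on the next. Its dimmest tested probe set gave 0.24 (SE 0.28), with control pools of 57.1 and 28.2 that spanned both unloaded pools, and a further one was under the filter (14.2 ± 2.19 in controls). Ech1, the dienoyl-CoA isomerase, gave 1238 and 1181 against 1123 and 1200, with overlapping groups (-0.06, SE 0.09).

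At electron transfer to ubiquinone, Etfa, the alpha subunit of the electron-transferring flavoprotein, gave 1228 and 1254 in controls and 1322 and 1274 in unloaded pools on its brighter probe set (0.06, SE 0.09). Its other probe set had overlapping groups (0.01, SE 0.09). Etfdh, the dehydrogenase that passes the electrons on, was below 0 on all 3 probe sets without overlap. The brightest gave 379.6 and 360.5 in controls and 358.3 and 341.6 in unloaded pools (-0.08, SE 0.10), and the others -0.24 (SE 0.12) and -0.25 (SE 0.14).

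Among members outside this route, Ehhadh, the bifunctional enzyme of peroxisomes, was dim at 27.9 and 24.4 in controls and 32.3 and 36.5 in unloaded pools (0.30, SE 0.18, adjusted p = 0.399). The peroxisomal thiolase Acaa1b was under the filter on its own probe set (12.2 ± 0.424 in controls), and the probe set it shares with Acaa1a gave 0.04 (SE 0.14). Acot2, which splits acyl-CoA in the mitochondrial matrix, gave 99.5 and 88.0 in controls against 66.6 and 70.8 on the dimmer of its probe sets (-0.40, SE 0.14, adjusted p = 0.162). Its brighter probe set had overlapping groups (-0.07, SE 0.12). Acot1, its cytosolic relative, was under the filter at 10.2 and 2.0 in controls, and the probe set shared by Acot1 and Acot2 gave 0.04 (SE 0.15).

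The nuclear receptors that drive this gene programme did not pass. Ppara, the receptor that fatty acids activate in liver and muscle, gave 44.2 and 41.8 in controls and 24.1 and 31.4 in unloaded pools, 1.42-fold lower (-0.51, SE 0.19, adjusted p = 0.176). Its groups did not overlap, and its log2 fold change ran from -0.65 to -0.32 over the alternatives, on a dim probe set. Ppard, the form most abundant in muscle, gave 226.2 and 228.3 against 219.8 and 273.9 on its brightest probe set (0.11, SE 0.13), and 0.07 (SE 0.15) and 0.29 (SE 0.18) on the others.

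**Figure D4:**
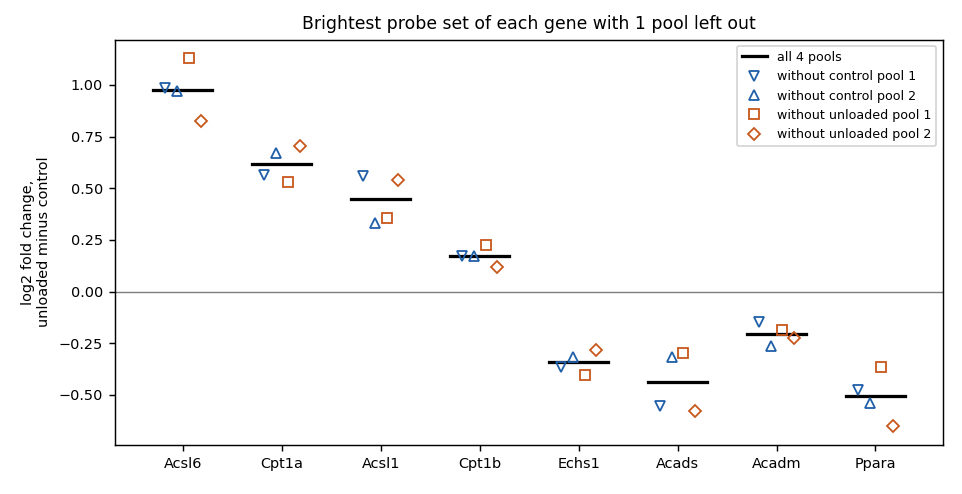
Log2 fold change (unloaded minus control, vertical axis) of the brightest probe set of 8 members with all 4 pools (bar) and with each pool left out (symbols). Acsl6 stays between 0.83 and 1.13 and Cpt1a between 0.53 and 0.70, while Acads ranges from -0.58 to -0.30 and Acadm from -0.26 to -0.15.

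Of 12 members with several tested probe sets, 11 had the same sign on all of them, Eci1 being the exception. This is a count of signs alone: probe sets of Cd36, Decr1 and Acot2 shared a sign but differed in size and in whether the groups overlapped. Several probe sets of a gene add no pools.

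Other genes around this route were taken from a list of 53 symbols, of which 33 had a tested probe set of their own. The list was chosen with earlier results of these data known. Of their 57 probe sets 3 rose and 3 fell, where 2.59% rose and 2.66% fell over all tested probe sets. Their median log2 fold change was -0.09, against 0.0013 over all tested probe sets. Ucp3, an uncoupling protein of muscle mitochondria, gave 158.7 and 141.2 in controls and 353.8 and 396.5 in unloaded pools on its brighter probe set (1.27, SE 0.12, adjusted p = 9.2e-04). Its other probe set rose as well (1.46, SE 0.20), with unloaded pools of 270.2 and 431.6. Pdk4, the kinase that restrains pyruvate dehydrogenase, rose from 1319 and 958 to 1673 and 1881 (0.65, SE 0.15, adjusted p = 0.0486). Bdh1, which makes and uses the ketone body hydroxybutyrate, fell from 199 ± 3.75 to 101 ± 11.8 (-0.92, SE 0.13, adjusted p = 0.00720). Acadsb, an acyl-CoA dehydrogenase of branched short chains, fell from 94.8 ± 8.20 to 44.4 ± 9.76 (-0.97, SE 0.17, adjusted p = 0.0204). Lpl, which releases fatty acids from circulating triglyceride, fell on 1 of its 3 probe sets, from 2496 ± 74.2 to 1769 ± 120 (-0.50, SE 0.09, adjusted p = 0.0221), and gave -0.36 and -0.16 on the others. Plin2, which coats lipid droplets, gave 165 and 168 against 213 and 253 without passing (0.46, SE 0.12, limma adjusted p = 0.0780). Probe sets below 0 came as near, among them a dim one of Hsd17b4 (-0.64, SE 0.17, adjusted p = 0.0760). The other Hsd17b4 probe sets gave -0.25 to -0.11.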

How the data were processed

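The authors deposited 1 table of intensity values, made with MAS5 per the submitters' processing notes; MAS5's version and settings are not given in these sources. Per-array trimmed means of these deposited intensities are alike (150.2 or 150.3). Control probe sets (59) were left out, and symbols came from the platform annotation, brought up to date through gene IDs in RefSeq's GRCr8 table (6985 of 7006 single-symbol probe sets matched). Signals became log2(signal + 9), 9 being the 25th percentile of all signals, which understates changes of dim probe sets. The filter kept probe sets whose signal averaged 21.0 or more (40th percentile), and these entered limma 3.58.1 in R 4.3.3 (lmFit, eBayes with a mean-variance trend, 2 residual and 5.80 prior degrees of freedom), adjusted by Benjamini-Hochberg over all 5257. The fit was tested on simulated data. The number of arrays limits the precision.

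Members and lists were chosen with earlier results of these data known, so counts and medians of lists carry no test. Every member with a tested probe set is named, with pool values for those that passed and for the main protein of each step. Pool numbers were not treated as pairs: the deviations of same-numbered pools correlated at -0.04. Promoter windows are RefSeq's. Alternatives were the scaling, offset, filter, trend, the pool number as a block, 1 value per gene, and each array left out. Plots used matplotlib 3.10.9 (Python 3.11.15).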

Additional observations from a re-analysis of the deposited data

How the results depend on the processing

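The 2 calls among the members became 1 (Acsl6) with quantile normalization, without a mean-variance trend and with the pool number as a replicate block, and 0 without a signal filter. Under the block the adjusted p of Cpt1a was 0.0922. They were 0 to 1 with a pool left out, Acsl6 passing without unloaded pool 1. They became 3, with Acsl1, under median scaling or the stricter filter. The count of lower members was 0 in every alternative, against 9 at an unadjusted p under 0.05 by limma with all pools and the main settings. Over all probe sets, 136 higher and 140 lower calls became 42 and 48 without a filter, 52 and 61 without a trend, 78 and 87 with the replicate block, and 22 to 43 and 38 to 55 with a pool left out. With 1 value per gene, 100 genes were higher and 88 lower, and 9 members had both unloaded pools above and 13 below, where fewer units are counted (29 members). Over all tested probe sets in the main fit these shares were 25.5% above and 25.3% below. The shares over all genes with 1 value each are not given here, so the 9 and 13 have no background of their own. The members' median ranged from -0.11 (without control pool 2) to 0.0409 (without control pool 1). No called member changed sign. Among 47 member probe sets, 3 to 5 small, uncalled differences changed sign with a pool left out, 3 with quantile normalization and 1 with median scaling. For the rest, the cause of a change was not tested. With 2 pools per group, only differences well above the spread between pools can pass.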
